A study of Helianthus annuus with 12 samples.

Results

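Seeds of the sunflower cultivar L-1-OL-1 were compared between 17 and 27 days after flowering (DAF), as 27 minus 17 DAF. Levels are in FPKM, which are sequenced fragments set against the length of the gene and the depth of the library. The comparison used 6 of the 12 libraries of the series, and a gene was tested where 3 or more of the 6 had an FPKM of 1 or higher, which 25455 of the 48882 genes in the expression table did. Seeds of 2 cultivars, 86-1 and L-1-OL-1, were sampled at both stages, with 3 RNA libraries in each of 4 groups. By the labels, oleic acid was building up quickly at 17 DAF and stayed about level by 27 DAF. Which of the cultivars is the high oleic one is not in the labels, and no treatment, transgene or mutation is given for either. Since nothing ties the libraries of a group to different plants or harvests, a p-value here covers library-to-library spread, which may be technical.

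A sunflower seed first lays down its hull and seed coat, then fills the embryo with oil and storage protein, and then dries. During filling, sucrose from the mother plant is broken down through glycolysis, and plastids turn the products into fatty acids that are joined to glycerol as triacylglycerol and kept in oil bodies. Stearoyl-ACP desaturase puts in the first double bond and gives oleic acid, and the oleate (omega-6) desaturase puts in the next one and gives linoleic acid. Late in development the embryo makes late embryogenesis abundant (LEA) proteins and small heat shock proteins, which protect cells during drying, and it stores messages for germination.

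The 17 DAF libraries stood apart from each other and are therefore shown one by one. Between replicates 1 and 2 at 17 DAF 22.1% of the tested genes were at least 2-fold apart, between replicates 1 and 3 36%, and between replicates 2 and 3 8.81%. The same share was 4.84% to 8.91% among the 27 DAF libraries and 3.35% to 11.8% within the groups of 86-1. The median gene's SD on the log2(FPKM + 1) scale was 0.435 at 17 DAF and 0.221 at 27 DAF. Across the tested genes, which are not independent replicates, replicates 1, 2 and 3 at 17 DAF had Pearson's r of 0.895, 0.773 and 0.707 with the mean of 86-1 at 17 DAF, and of 0.575, 0.628 and 0.715 with the 27 DAF mean of their own cultivar. With the mean of the other 2 libraries of their own group, r was 0.822, 0.95 and 0.882. For replicate 1 this was lower than its r with 86-1 at 17 DAF, whose mean is of 3 libraries. FPKM totals of the 6 libraries lay between 605655 and 661703. Steps between low FPKM values put the depth of the libraries at 1.01 to 1.53 times that of replicate 1 at 17 DAF, which was the shallowest, but the read numbers themselves are unknown.

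**Figure D1:**
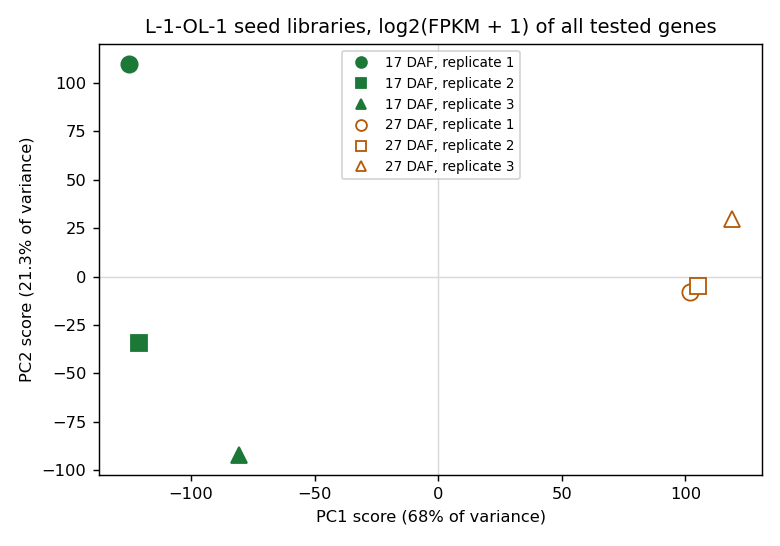
Principal component scores of the 6 L-1-OL-1 libraries from log2(FPKM + 1) of the 25455 tested genes; each point is a library, filled at 17 DAF and open at 27 DAF. The 27 DAF libraries lie together at PC1 scores of 102 to 119, and the 17 DAF libraries, at -125 to -80.6, spread along PC2 from 110.0 to -92.3.

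As a share of the summed FPKM, seed storage protein genes made up 31.7%, 18.4% and 0.796% of replicates 1, 2 and 3 at 17 DAF, against 0.783%, 1.1% and 2.68% in the 27 DAF libraries. LEA genes took 0.554%, 1.56% and 4.38% at 17 DAF and 5.4% to 7.7% at 27 DAF. Replicate 1 at 17 DAF was thus high in storage protein RNA and low in LEA RNA, replicate 2 was intermediate, and replicate 3 had storage and LEA shares near those at 27 DAF. Photosynthesis genes, which mark green tissue, took 0.023% in replicate 1 and 0.178% and 0.191% in replicates 2 and 3, against 0.0411% to 0.0759% at 27 DAF. Genes of endosperm and seed coat took 0.024%, 0.0856% and 0.109% at 17 DAF and 0.0409% to 0.0566% at 27 DAF. For both of these lists replicate 1 at 17 DAF lay below the 27 DAF libraries and replicates 2 and 3 above them. Oil body protein genes, which mark oil-storing seed tissue, took 2.06% to 2.67% in all 6 libraries. In whole seeds, fewer cells of a type and less RNA per cell cannot be told apart.

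**Figure D2:**
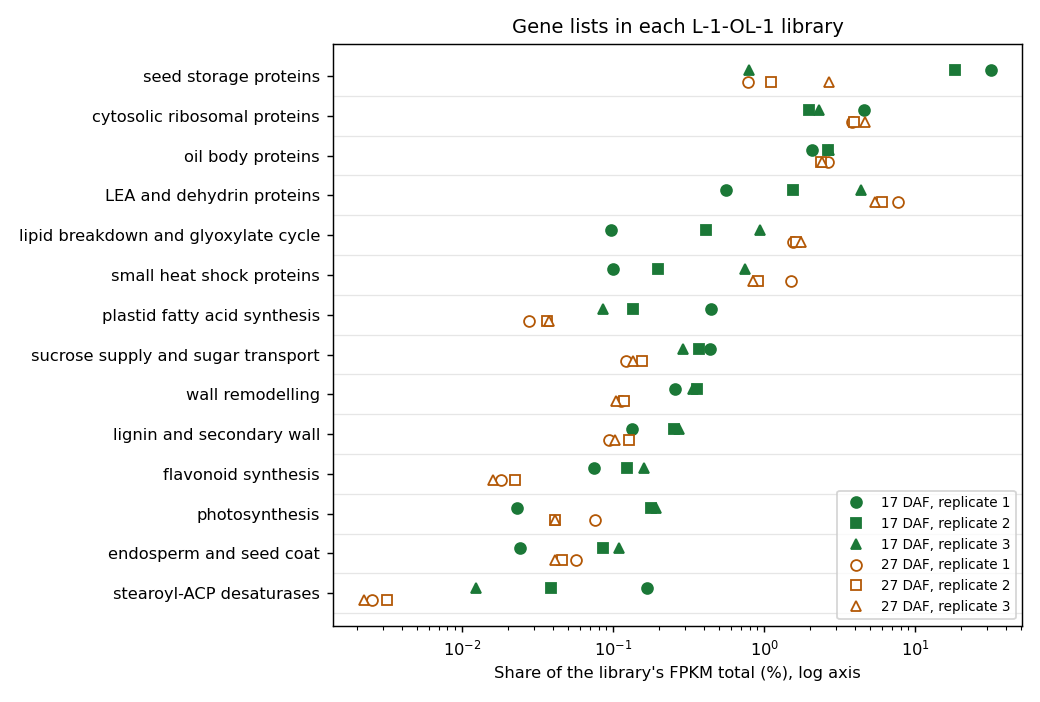
Share of each library's FPKM total, in percent on a log axis, held by 14 gene lists; filled green symbols are the 17 DAF libraries and open brown symbols the 27 DAF libraries. The 17 DAF libraries range from 0.796% to 31.7% in the storage protein share, while the stearoyl-ACP desaturase share is higher in each of them (0.0123% to 0.168%) than at 27 DAF (0.00224% to 0.00319%).

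At an adjusted p under 0.05 in limma, 4989 genes (19.6% of those tested) were higher at 27 DAF and 4975 (19.5%) were lower, together 39.1%. Of these, 3725 higher and 4400 lower genes changed at least 2-fold, and 43 higher and 323 lower genes at least 16-fold. The filter treats the stages alike, but 1906 genes were tested through their 17 DAF values alone and 656 through their 27 DAF values alone. For these genes the direction of the difference was fixed by the way they passed. The median difference over all tested genes was 0.10 on the log2(FPKM + 1) scale, on which all differences below are given with their standard error; for genes of few FPKM the added 1 makes a change look smaller. Median-of-ratios scaling moved that median to -0.01. Among the tested genes 12 were listed at 0 in all 17 DAF libraries and 242 in all 27 DAF libraries, and for these no difference is printed. The stages did not overlap in 55% of the tested genes, 29.5% being higher at 27 DAF in every library and 25.6% lower. Under quantile normalization 58.9% of called genes were higher, against 50.1% here.

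Leaving out either of the outermost 17 DAF libraries lost few calls: 9360 of the 9964 called genes passed without replicate 1 and 9103 without replicate 3. Without replicate 2 5278 passed, and without replicate 1, 2 or 3 of 27 DAF 6239, 5789 and 5439. In each of the 6 fits without 1 library 4755 called genes passed, 1913 higher and 2842 lower, and no called gene changed sign. The calls of single genes given below held in all 6 of these fits unless the text says otherwise. A range in brackets after the number of called members of a list is over the same 6 fits. Its lowest value always came from leaving out replicate 2 at 17 DAF or a 27 DAF library. Where leaving out a library gave more lower members, the most came without replicate 1 at 17 DAF, except for storage proteins, thioesterases and ribosomal proteins (replicate 3). Where it gave more higher members, the most came without replicate 3 at 17 DAF, except for ribosomal proteins (replicate 1). Among genes called higher, replicate 3 was the 17 DAF library nearest to the 27 DAF mean for 80.5%, and their median difference was 1.55, 1.34 and 0.94 against replicates 1, 2 and 3. Among genes called lower, replicate 1 was nearest for 57.4%, with median differences of -1.52, -1.88 and -1.84.

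**Figure D3:**
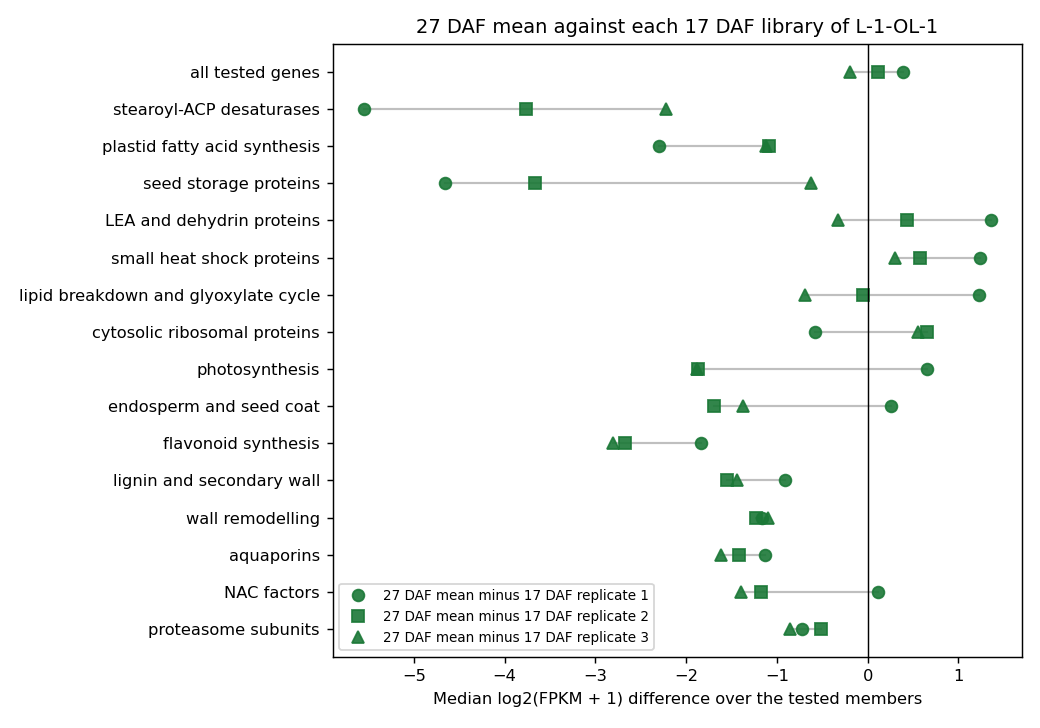
Median log2(FPKM + 1) difference of the 27 DAF mean from each single 17 DAF library over the tested members of 15 lists (first line, all tested genes); the symbols are the 17 DAF libraries. Wall remodelling, aquaporin and flavonoid genes lie on the same side of 0 whichever library is used, while photosynthesis, LEA, ribosomal and glyoxylate cycle genes lie on both sides.

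The machinery that makes oleic acid was lower at 27 DAF. The stearoyl-ACP desaturase gene3372 had 949.9, 168 and 32.4 FPKM at 17 DAF and 3.67, 7.14 and 4.68 FPKM at 27 DAF, a difference of -4.87 ± 1.08 (adjusted p = 0.0132). The other tested stearoyl-ACP desaturase, gene48724, had 163, 76.8 and 45.8 FPKM at 17 DAF and 11.9, 12.2 and 8.94 FPKM at 27 DAF (-2.82 ± 0.46, adjusted p = 0.00452). For both genes every 17 DAF library lay above every 27 DAF library, and replicate 1 was the highest. Both members of this list were lower in the main fit, against 19.5% of all tested genes. Both were also lower in every fit without 1 library, as were 2842 of all 25455 tested genes.

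Of the 4 tested oleate desaturases 1 was lower (0 to 2) and none higher, with a list median of -0.85. The oleate desaturase gene64287 had 49.3, 18.0 and 2.56 FPKM at 17 DAF and 0.0902, 0.0735 and 0 FPKM at 27 DAF (-3.83 ± 0.86, adjusted p = 0.0136), a call lost without replicate 2 at 17 DAF (adjusted p = 0.0552). All of its 17 DAF libraries lay above those at 27 DAF, which was fixed, since it passed the filter through 17 DAF alone. The oleate desaturase gene1458 ran the other way among the 17 DAF libraries, with 5.5, 43.5 and 87 FPKM, and had 19.1, 11.5 and 5.53 FPKM at 27 DAF. The stages overlapped in gene1458 through replicate 1 at 17 DAF (-1.32 ± 0.94, adjusted p = 0.293), without which it passed (0.0101). They overlapped too in gene55389 (-0.38 ± 0.44, 0.508) and gene44739 (-0.11 ± 0.27, 0.77). A further member, gene18808, singled out after its values were seen, reached 31 FPKM in its highest library but did not pass the filter.

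Among 26 tested genes of plastid fatty acid synthesis 14 were lower (6 to 16) and 2 higher (0 to 2), with a median of -1.34. The acyl carrier proteins hold the growing chain, and gene32158 had 354, 156 and 80.6 FPKM at 17 DAF and 14.1, 15.4 and 14.1 FPKM at 27 DAF (-3.42 ± 0.51, adjusted p = 0.00343). Its relative gene63283 had 741, 148 and 82.6 FPKM at 17 DAF and 14.6, 18.6 and 15.2 FPKM at 27 DAF (-3.62 ± 0.75, adjusted p = 0.0102). The hydroxyacyl-ACP dehydratase gene9482, which works in each round of chain growth, went from 135, 21.2 and 7.18 FPKM to between 0.282 and 0.614 FPKM (-4.38 ± 0.92). All 3 genes separated the stages fully and were highest in replicate 1 at 17 DAF. For gene9482 the separation was fixed, since it passed the filter through 17 DAF alone.

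The list of other fatty acid desaturases had 18 tested members, of which 9 were lower (3 to 13) and none higher (median -2.19). The fatty acid/sphingolipid desaturase gene79904 had 17, 12.6 and 6.7 FPKM at 17 DAF and 1.18, 2.07 and 1.33 FPKM at 27 DAF (-2.31 ± 0.36, adjusted p = 0.00383). The endoplasmic omega-3 desaturase gene1691, which makes linolenic acid, had 28.2, 149.9 and 96.8 FPKM and then 26.6, 7.56 and 1.51 FPKM (-3.17 ± 0.94, adjusted p = 0.0351). This call was lost without replicate 2 or 3 at 17 DAF (0.119 and 0.0833) or replicate 2 or 3 at 27 DAF (0.09 and 0.0881). The desaturase domain gene54857 was at 107 FPKM in replicate 1, 4.24 and 2.28 FPKM in replicates 2 and 3, and listed at 0 in all 27 DAF libraries. It was called lower, but not without replicate 2 at 17 DAF (adjusted p = 0.0739) or replicate 1, 2 or 3 at 27 DAF (0.117, 0.115 and 0.11).

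Enzymes that join fatty acids to glycerol had 6 of 28 members lower (4 to 9), 21.4% against 19.5% of all tested genes. They had 1 higher (1 to 6) and a median of -0.06, which was 0.09 under quantile normalization. The lysophosphatidyl acyltransferase gene55427 had 78.1, 52.6 and 34.7 FPKM at 17 DAF and 6.06, 3.21 and 0.996 FPKM at 27 DAF (-3.77 ± 0.51, adjusted p = 0.00249). The diacylglycerol acyltransferase gene69246, which adds the last fatty acid, had 31.4, 23.6 and 20.8 FPKM and then 9.86, 10.1 and 9.53 FPKM (-1.26 ± 0.24, adjusted p = 0.00811). In contrast gene50246, of the family of phospholipid:diacylglycerol acyltransferases, had 3.43, 4.65 and 8.58 FPKM at 17 DAF and 29.3, 22.1 and 19.2 FPKM at 27 DAF (1.96 ± 0.35, adjusted p = 0.00597). Acyl-ACP thioesterases and acyl-CoA synthetases had 5 of 17 members lower (5 to 6) and 2 higher (0 to 5), at a median of 0.23 that was -0.18 without replicate 1 at 17 DAF. Its lower members included the long-chain acyl-CoA synthetases gene43869 (-2.96 ± 0.25) and gene37053 (-2.54 ± 0.38).

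Oil body protein genes, by contrast, kept their share of the total, with 4 of 22 members higher (1 to 6) and 5 lower (2 to 5, median 0.18). These shares, 18.2% and 22.7%, were near the 19.6% and 19.5% of all tested genes. The oleosin gene67185, of the proteins that coat oil bodies, had 1294, 3752 and 5640 FPKM at 17 DAF and 4928, 3930.4 and 3525 FPKM at 27 DAF (0.44 ± 0.78, adjusted p = 0.674). The seipin gene20216, of a family that shapes new oil bodies, had 38.7, 50.01 and 70.6 FPKM at 17 DAF and 252, 248 and 294 FPKM at 27 DAF (2.33 ± 0.32, adjusted p = 0.00262). The caleosin gene80552 went the other way, from 40.4, 120.0 and 81.1 FPKM to 13.8, 6.38 and 5.18 FPKM (-3.09 ± 0.49, adjusted p = 0.00419), and so did the caleosin gene80554 (-2.1 ± 0.42). These 3 genes separated the stages fully. The oleosin gene29184 was lower at 27 DAF (-2.08 ± 0.59, adjusted p = 0.0292), a call lost without replicate 2 at 17 DAF (0.083) or replicate 1, 2 or 3 at 27 DAF (0.108, 0.129 and 0.107).

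**Figure D4:**
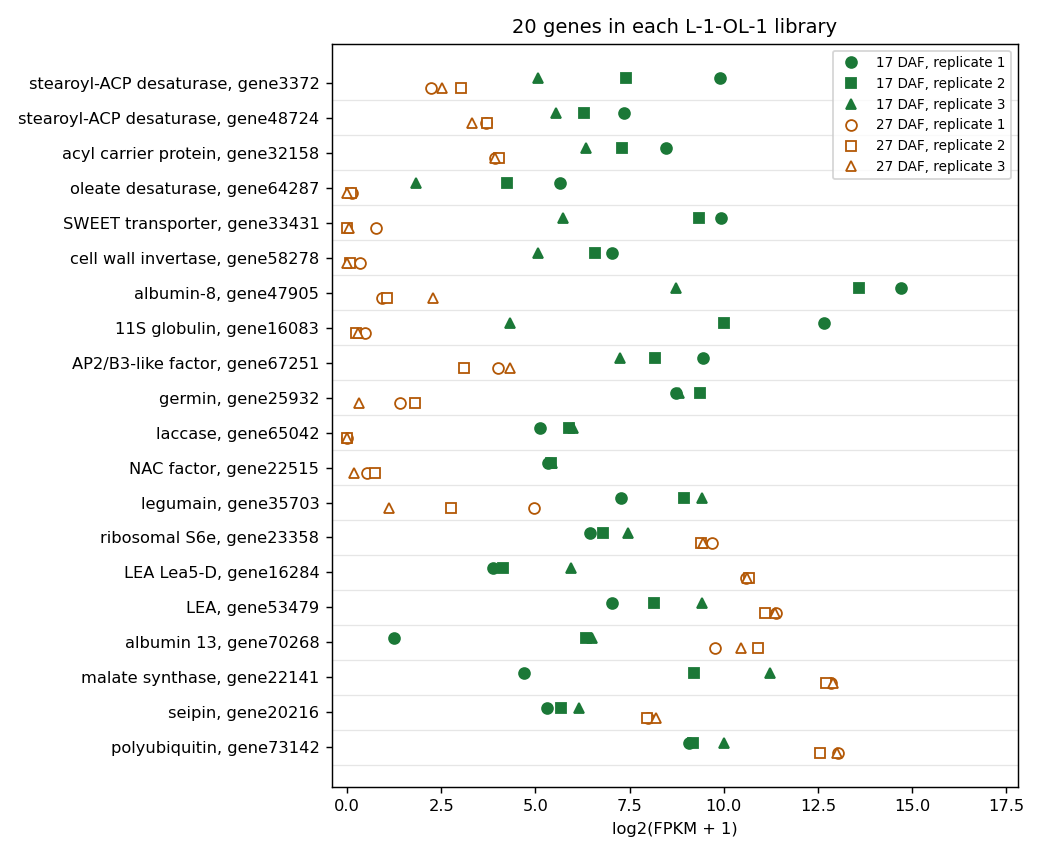
Level of 20 genes in each library on the log2(FPKM + 1) scale; filled green symbols are 17 DAF and open brown symbols 27 DAF, with the replicate given by the shape. In the upper 8 genes replicate 3 is the lowest 17 DAF library, as for albumin-8 with 425 FPKM against 12336 and 26758 FPKM, whereas laccase, the NAC factor and germin lie close together at 17 DAF.

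Of 25 tested storage protein genes 9 were lower (3 to 20) and 1 higher (0 to 2), with a median of -2.47. The median against replicates 1, 2 and 3 at 17 DAF singly was -4.66, -3.66 and -0.62. Without replicate 3 at 17 DAF 20 members were lower, and 5 and 6 were under median-of-ratios scaling and quantile normalization. The albumin-8 gene47905, a seed albumin, had 26758, 12336 and 425 FPKM at 17 DAF and 0.91, 1.09 and 3.84 FPKM at 27 DAF (-10.92 ± 1.44, adjusted p = 0.00229). The 11S globulin gene16083 had 6517, 1022 and 19.2 FPKM and then 0.384, 0.168 and 0.219 FPKM (-8.68 ± 1.86, adjusted p = 0.0116). In both genes even replicate 3 lay far above the 27 DAF libraries, but both were chosen among genes without overlap between the stages.

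Other storage genes overlapped between the stages through replicate 3. The globulin gene27983 had 23975, 16069 and 2073 FPKM at 17 DAF and 1210, 1782 and 3853 FPKM at 27 DAF (-2.2 ± 1.11, adjusted p = 0.153), but passed without replicate 3 at 17 DAF (0.0258). The globulin gene16080 had 23857, 20784 and 739.5 FPKM and then 250.4, 237 and 773 FPKM (-4.32 ± 1.38, adjusted p = 0.0444). Its call was lost without replicate 1 or 2 at 17 DAF (0.0731 and 0.136) or replicate 1, 2 or 3 at 27 DAF (0.133, 0.135 and 0.0745). The only higher member, the albumin 13 gene70268, had 1.38, 79.4 and 90.2 FPKM at 17 DAF and 877, 1909 and 1411 FPKM at 27 DAF (5.68 ± 1.35, adjusted p = 0.0164, and 0.0563 without replicate 2 at 27 DAF). Storage proteins form families of close relatives that can share reads, so levels of single members are uncertain. Of 6 members that did not pass the filter, the legumin gene36170, singled out after its values were seen, reached 523 FPKM in its highest library.

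LEA genes went both ways, with 10 of 62 tested members higher (5 to 27) and 19 lower (13 to 23) at a median of 0.69. The share higher, 16.1%, was below the 19.6% of all tested genes, and the share lower was 30.6% against 19.5%. The median against replicates 1, 2 and 3 at 17 DAF singly was 1.36, 0.43 and -0.33, so its sign depended on the library. Quantile normalization gave a median of 0.33. The higher members included abundant seed LEA genes. The Lea5-D gene16284 had 13.7, 16.7 and 60.7 FPKM at 17 DAF and 1526, 1634 and 1555 FPKM at 27 DAF (5.96 ± 0.56, adjusted p = 0.000793), and the LEA-18 gene53479 had 131, 284 and 683 FPKM and then 2691, 2200.3 and 2612 FPKM (3.08 ± 0.66, adjusted p = 0.0116). Both separated the stages, which for gene16284 was a condition of its choice. The most abundant member at 27 DAF, gene42840 (DS11), had 751, 1471 and 2666 FPKM at 17 DAF and 11865, 6385 and 7454 FPKM at 27 DAF (2.53 ± 0.75, adjusted p = 0.0346). That call was lost without replicate 2 at 17 DAF (0.088) or replicate 1, 2 or 3 at 27 DAF (0.124, 0.0964 and 0.107).

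Several lower members of the list carried the names LEA-14 or hydroxyproline-rich glycoprotein, which belong to relatives that are not restricted to drying seeds. Other lower members did not carry these names. The LEA group 2 gene2643 had 60.8, 59.3 and 89.6 FPKM at 17 DAF and 5.62, 3.65 and 3.32 FPKM at 27 DAF (-3.77 ± 0.29, adjusted p = 0.000431). The LEA-14 gene33959 had 280.1, 310.2 and 417 FPKM at 17 DAF and 28.1, 33.4 and 25.8 FPKM at 27 DAF (-3.47 ± 0.29, adjusted p = 0.000566). The hydroxyproline-rich gene65104 had 85.5, 137 and 39.6 FPKM and then 6.34, 2.02 and 0.177 FPKM (-4.73 ± 0.72, adjusted p = 0.0036). The stages did not overlap in gene2643, gene33959 or gene65104. The LEA D-29-like gene21378, among the 6 abundant genes with the largest SD at 17 DAF, had 4.58, 262 and 3348 FPKM, and 3481, 3025 and 1905 FPKM at 27 DAF (4.0 ± 2.06, adjusted p = 0.16).

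Small heat shock proteins had 7 of 46 members higher (1 to 16) and 2 lower (0 to 4), with a median of 0.79. The share higher, 15.2%, was below the 19.6% of all tested genes, and 1 call of this list held in all 6 fits without 1 library. The small heat shock gene12607 had 23, 73.1 and 130.4 FPKM at 17 DAF and 488, 283 and 359.5 FPKM at 27 DAF (2.58 ± 0.63, adjusted p = 0.0178). It was lost without replicate 2 at 17 DAF (0.0533) or replicate 1 or 3 at 27 DAF (0.063 and 0.0545). Among the other chaperones, which help proteins fold, 61 of 240 were higher (27 to 83) and 29 lower (18 to 45, median 0.36). These shares were 25.4% and 12.1%, against 19.6% and 19.5% of all tested genes. The DnaJ gene13163 had 39.6, 59.7 and 100.5 FPKM at 17 DAF and 260.4, 261 and 248 FPKM at 27 DAF (2.03 ± 0.39, adjusted p = 0.00781). The HSP90 gene32399 had 7.14, 11.2 and 18.7 FPKM and then 53.1, 61.9 and 57.3 FPKM (2.22 ± 0.35), and the HSP70 gene7607 had 4.88, 5.05 and 8.59 FPKM and then 32.3, 37.2 and 32.2 FPKM (2.32 ± 0.27). In these 3 chaperones the lowest 27 DAF library was above the highest 17 DAF library.

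Among 14 tested seed maturation regulators 2 were higher (1 to 2) and 2 lower (2 to 3), 14.3% each, below the 19.6% and 19.5% of all tested genes. The AP2/B3-like factor gene67251, of a family that includes master regulators of seed maturation in Arabidopsis, had 703, 287 and 151 FPKM at 17 DAF and 15.1, 7.52 and 19.2 FPKM at 27 DAF (-4.48 ± 0.6, adjusted p = 0.00246). The MADS-box factor gene2348 (AGL15), known from Arabidopsis embryos, had 3.76, 2.04 and 1.78 FPKM and then 0, 0.0942 and 0.0194 FPKM (-1.73 ± 0.24). The CCAAT-binding factor gene51053 had 7.98, 6.51 and 7.97 FPKM and then 15.5, 21 and 20.8 FPKM (1.24 ± 0.24, adjusted p = 0.00803). The viviparous-1 gene66200, which in maize carries the abscisic acid response of the seed, had 29.4, 17.1 and 21 FPKM at 17 DAF and 44, 50.02 and 51.5 FPKM at 27 DAF (1.11 ± 0.27, adjusted p = 0.0192). It did not overlap between stages, but its call was lost without replicate 2 at 17 DAF (0.0775) or replicate 1, 2 or 3 at 27 DAF (0.0504, 0.0767 and 0.0827).

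In the abscisic acid list 3 of 10 members were higher (1 to 5) and 2 lower (1 to 2), 30% and 20% against 19.6% and 19.5% of all tested genes. Zeaxanthin epoxidase, an early enzyme of abscisic acid synthesis, was encoded by gene16746, which had 21.1, 18.4 and 13.4 FPKM at 17 DAF and 0.379, 0.347 and 0.036 FPKM at 27 DAF (-3.88 ± 0.26, adjusted p = 0.000309). The abscisic acid binding protein gene56156 had 13.1, 16.9 and 22.3 FPKM and then 53.8, 71.1 and 58.1 FPKM (1.77 ± 0.28, adjusted p = 0.00407). Both genes were far apart between the stages in every library. For gene16746 the separation was fixed, since it passed the filter through 17 DAF alone. Auxin and gibberellin genes had 62 of 171 members lower (43 to 78) and 19 higher (5 to 28). The auxin-response gene37362 had 100.1, 116 and 132 FPKM at 17 DAF and 11, 24.8 and 18.2 FPKM at 27 DAF (-2.68 ± 0.34), while the dormancy/auxin associated gene13316 had 0.169, 2.79 and 14.8 FPKM and then 103, 126 and 104 FPKM (4.76 ± 0.84, adjusted p = 0.0061). The gibberellin regulated gene37795 had 1.36, 3.25 and 4.48 FPKM and then 22.7, 43.8 and 39.8 FPKM (3.21 ± 0.4).

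**Figure D5:**
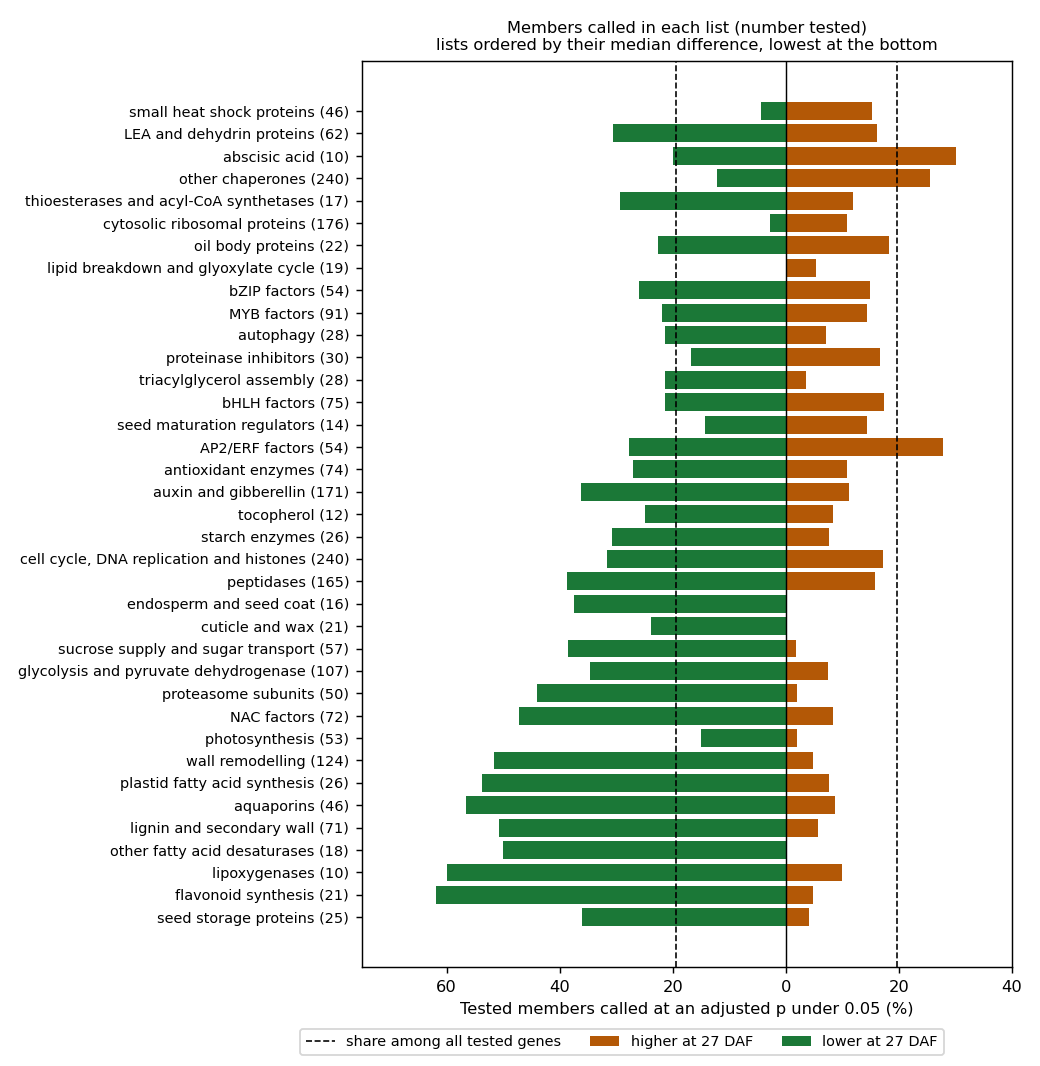
Percent of tested members called higher (right, brown) and lower (left, green) at 27 DAF in the lists with at least 10 tested members, whose number is in brackets; the dashed lines are the shares among all tested genes (19.6% and 19.5%). Lists of walls, lignin, aquaporins, lipoxygenases, flavonoids and plastid fatty acid synthesis have over 50% of members lower.

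Of 57 tested genes of sucrose breakdown and sugar transport 22 were lower at 27 DAF (18 to 29) and 1 higher (0 to 2), with a median of -0.64. The SWEET gene33431, of a family of sugar exporters, had 971, 644 and 52.6 FPKM at 17 DAF and 0.685, 0 and 0.0384 FPKM at 27 DAF (-8.06 ± 1.02, adjusted p = 0.002). The cell wall invertase gene58278, which splits sucrose outside the cell, had 129, 95.1 and 32.5 FPKM and then 0.261, 0.0547 and 0 FPKM (-6.09 ± 0.5, adjusted p = 0.000518). The sucrose transporter gene15616 had 116, 208 and 288 FPKM and then 18.5, 33.9 and 23.8 FPKM (-2.9 ± 0.41, adjusted p = 0.00289). The first 2 genes were highest in replicate 1 at 17 DAF and the transporter in replicate 3. None of the 3 overlapped between stages. For the SWEET and invertase genes this was fixed, since both passed the filter through 17 DAF alone. For the SWEET gene it was also a condition of its choice. Sucrose synthase genes moved apart: gene45459 had 488, 48.8 and 27.6 FPKM at 17 DAF and 1.18 to 3.47 FPKM at 27 DAF (-4.71 ± 0.99, adjusted p = 0.011). In gene148, the higher member, the values were 6.2, 34.2 and 119.8 FPKM and then 321, 329 and 314 FPKM (3.36 ± 0.92, adjusted p = 0.0265). The call of gene148 was lost without replicate 2 at 17 DAF (0.0765) or replicate 1, 2 or 3 at 27 DAF (0.0737, 0.0753 and 0.0687).

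Glycolysis and pyruvate dehydrogenase had 37 of 107 members lower (26 to 47) and 8 higher (3 to 13, median -0.65). The enolase gene72676 had 51.4, 20.6 and 12.2 FPKM at 17 DAF and 0.277 to 0.391 FPKM at 27 DAF (-4.23 ± 0.48, adjusted p = 0.00145). The E1 beta subunit of pyruvate dehydrogenase, gene16325, had 119, 14.7 and 7.42 FPKM and then 0.376 to 0.511 FPKM (-4.14 ± 0.89, adjusted p = 0.0118), and the cytosolic triosephosphate isomerase gene26384 had 208, 98.1 and 107 FPKM and then 28.7 to 43.2 FPKM (-1.77 ± 0.37). Replicate 1 at 17 DAF was highest in all 3, and the stages did not overlap. For gene72676 and gene16325 the lack of overlap was fixed, since both passed the filter through 17 DAF alone. Higher members included the hexokinase-like gene57059, with 2.21, 3.93 and 4.49 FPKM at 17 DAF and 12.6 to 15.4 FPKM at 27 DAF (1.76 ± 0.28). Starch enzymes had 8 of 26 members lower (5 to 10) and 2 higher (0 to 3), 30.8% and 7.69% against 19.5% and 19.6% of all tested genes. Of 6 raffinose family genes 3 were lower in every fit without 1 library, among them the galactinol synthase gene30771, an enzyme at the start of this pathway, with 18, 24.7 and 62.1 FPKM and then 3.54 to 6.39 FPKM (-2.47 ± 0.47, adjusted p = 0.00762). Another galactinol synthase, gene40350, chosen after its values were seen, had 14.9, 73.9 and 164 FPKM at 17 DAF and 314, 222 and 249 FPKM at 27 DAF without passing (2.16 ± 0.8, adjusted p = 0.0674).

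Genes that mobilise stored oil in seedlings rarely passed the test. The list of lipid breakdown and the glyoxylate cycle took 0.0962%, 0.411% and 0.941% of the total at 17 DAF and 1.54% to 1.75% at 27 DAF, without overlap, yet 1 of its 19 tested members was higher (0 to 5) and none lower (0 to 2). Malate synthase, a glyoxylate cycle enzyme encoded by gene22141, had 25, 586 and 2392 FPKM at 17 DAF and 7375, 6772 and 7702 FPKM at 27 DAF (4.45 ± 1.52, adjusted p = 0.0544). It passed without replicate 1 or 3 at 17 DAF (0.0185 and 0.017). Its partner enzyme isocitrate lyase, gene15722, chosen after its values were seen, had 2.54, 251 and 837 FPKM and then 785, 1216 and 1400.4 FPKM (3.6 ± 1.83, adjusted p = 0.156). In both genes replicate 1 at 17 DAF was far below the other two.

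Lipoxygenases, which oxidise linoleic and linolenic acid, had 6 of 10 members lower (4 to 6) and 1 higher (median -2.23). The lipoxygenase gene57443 had 14.9, 51.7 and 29.2 FPKM at 17 DAF and 4.3, 1.13 and 0.377 FPKM at 27 DAF (-3.56 ± 0.61, adjusted p = 0.00534). The higher member, gene8063, had 12.3, 22.5 and 18.4 FPKM and then 56.1, 41.1 and 63.7 FPKM (1.56 ± 0.31, adjusted p = 0.00916). The lipoxygenase gene57450 was at 15.6, 29.2 and 18.2 FPKM at 17 DAF and listed at 0 in all 27 DAF libraries. Antioxidant enzymes had 20 of 74 members lower (14 to 31) and 8 higher (0 to 10), 27% and 10.8% against 19.5% and 19.6% of all tested genes. Catalases, which break down hydrogen peroxide, went both ways. Catalase 3, gene30538, had 105, 297 and 415 FPKM at 17 DAF and 7.12, 0.0576 and 0 FPKM at 27 DAF (-6.85 ± 0.89, adjusted p = 0.00223). The catalase gene60588 had 1.73, 18.2 and 201 FPKM and then 819.7, 1952 and 1673 FPKM (5.98 ± 1.4, adjusted p = 0.0159), a call lost without replicate 2 of either stage (0.0591 at 17 DAF and 0.0546 at 27 DAF). Tocopherol synthesis had 3 of 12 members lower (2 to 3) and 1 higher (0 to 1), 25% and 8.33% against 19.5% and 19.6% of all tested genes.

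Cell wall genes fell broadly. Of 124 wall remodelling genes 64 were lower (49 to 73) and 6 higher (1 to 15, median -1.12), and of 71 genes of lignin and secondary walls 36 were lower (32 to 40) and 4 higher (1 to 8, median -1.54). Of the 70 and 40 calls, 49 and 33 held in all 6 fits without 1 library. The caffeic acid O-methyltransferase gene16817, of lignin synthesis, had 114, 207 and 177 FPKM at 17 DAF and 3.34, 3.05 and 3.01 FPKM at 27 DAF (-5.29 ± 0.29, adjusted p = 0.000153). The laccase gene65042, of a family that joins lignin units, had 33.9, 57.8 and 62.4 FPKM at 17 DAF and was listed at 0 in all 27 DAF libraries. The polygalacturonase gene24294, which cuts pectin, had 28.5, 54.9 and 52 FPKM and then 0.501, 0.329 and 0.293 FPKM (-5.02 ± 0.31, adjusted p = 0.000224), and the extensin gene62062, a structural wall protein, had 70.5, 104 and 72.4 FPKM and then 2.31, 0.489 and 0.44 FPKM (-5.42 ± 0.38). Unlike in the storage genes, the 17 DAF libraries were close together in these. The cellulose synthase gene58929 was a higher member, with 0, 0.0919 and 1.26 FPKM at 17 DAF and 15.1, 10.5 and 14.1 FPKM at 27 DAF (3.38 ± 0.36, adjusted p = 0.00117).

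Flavonoid synthesis had 13 of 21 members lower (10 to 17) and 1 higher (median -2.27). The dihydroflavonol reductase gene57861, on the way to seed coat pigments, had 174, 180.4 and 35.2 FPKM at 17 DAF and 0.132, 0.119 and 0.219 FPKM at 27 DAF (-6.5 ± 0.61, adjusted p = 0.000788). The flavonoid hydroxylase-like Helianthus_annuus_newGene_23641 had 32.2, 59.9 and 65.7 FPKM and then 0.706, 0 and 0.0609 FPKM (-5.39 ± 0.36). Aquaporins, the water channels, had 26 of 46 members lower (20 to 30) and 4 higher (1 to 4, median -1.49). The aquaporin gene56030 had 246, 306 and 516 FPKM at 17 DAF and 57.7, 35.6 and 27.3 FPKM at 27 DAF (-3.11 ± 0.42, adjusted p = 0.00246), and gene49034 was among the higher ones with 2.31, 2.3 and 3.52 FPKM and then 13, 13.3 and 12.2 FPKM (1.91 ± 0.24). These genes separated the stages in every library. For gene57861 and Helianthus_annuus_newGene_23641 this was fixed, since both passed the filter through 17 DAF alone. The cuticle and wax list had 5 of 21 members lower (4 to 9) and the endosperm and seed coat list 6 of 16 (6 to 8), with none higher in either. The shares lower were 23.8% and 37.5%, against 19.5% of all tested genes.

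Values of lists that mark tissues other than the embryo stand beside these results. The lignin list took 0.133%, 0.251% and 0.273% of the FPKM total at 17 DAF and 0.0938% to 0.127% at 27 DAF, and 20 of its 154 genes in the table were at 0 in all 6 libraries. The endosperm and seed coat list, with 5 of 48 genes at 0 throughout, and the photosynthesis list, with 1 of 117, overlapped between the stages through replicate 1 at 17 DAF. Photosynthesis genes had 8 of 53 tested members lower (2 to 30) and 1 higher (0 to 4), and it was without that replicate that 30 were lower. The share lower in the main fit, 15.1%, was below the 19.5% of all tested genes. The chlorophyll a-b binding gene46351 had 9.06, 53.7 and 74.9 FPKM at 17 DAF and 6.34, 1.2 and 0.381 FPKM at 27 DAF (-3.62 ± 0.89, adjusted p = 0.0185). Its call was lost without replicate 2 at 17 DAF (0.0729) or replicate 2 or 3 at 27 DAF (0.0627 and 0.0606). The part of hull, seed coat or green tissue in the wall, flavonoid and water channel results was not tested.

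Genes of the cell cycle, DNA replication and chromatin had 76 of 240 members lower (41 to 96) and 41 higher (13 to 49, median -0.48). The share lower was 31.7% against 19.5% of all tested genes, and the share higher, 17.1%, was below their 19.6%. The linker histone gene21994 (H5) had 479.7, 331 and 416 FPKM at 17 DAF and 36.6, 32 and 22.1 FPKM at 27 DAF (-3.73 ± 0.32, adjusted p = 0.0006). The histone H4 gene63413, which packs newly made DNA, had 132, 26.6 and 6.75 FPKM and then 0.195, 0 and 0.358 FPKM (-4.7 ± 0.92, adjusted p = 0.00854). The linker histone was even across the 17 DAF libraries, whereas histone H4 was high in replicate 1. The histone-fold gene17986 was higher, with 4.26, 8.34 and 33.8 FPKM at 17 DAF and 122, 109 and 82.8 FPKM at 27 DAF (3.12 ± 0.65, adjusted p = 0.0108). Histones are close relatives that can share reads, so levels of single members are uncertain.

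Cytosolic ribosomal proteins had 19 of 176 members higher (4 to 65) and 5 lower (2 to 6, median 0.21), below the 19.6% and 19.5% of all tested genes. Their share of the total was 4.6%, 1.99% and 2.29% at 17 DAF and 3.79% to 4.67% at 27 DAF, so that replicate 1 lay within the 27 DAF range and the other two below it. Without replicate 1 at 17 DAF 65 members were higher, and without replicate 2 4 were. The ribosomal protein S6e gene23358 had 85.8, 111 and 175 FPKM at 17 DAF and 820.4, 673 and 696 FPKM at 27 DAF (2.61 ± 0.39, adjusted p = 0.00333). Its relative gene44855 had 565, 196 and 216 FPKM and then 1125, 980.0 and 1221 FPKM (1.93 ± 0.52, adjusted p = 0.0251). The call of gene44855 was lost without replicate 2 at 17 DAF (0.0911) or replicate 1, 2 or 3 at 27 DAF (0.0777, 0.0766 and 0.0914).

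The polyubiquitin gene73142, the tag for proteins to be degraded, had 542, 577 and 1036 FPKM at 17 DAF and 8422, 6011 and 8176 FPKM at 27 DAF (3.44 ± 0.59, adjusted p = 0.00541), and was the most abundant gene in replicate 3 at 27 DAF. Proteasome subunits, which degrade tagged proteins, had 22 of 50 members lower (6 to 22) and 1 higher (0 to 3, median -0.79). The regulatory subunit gene66867 had 20.7, 16.1 and 22.1 FPKM at 17 DAF and 4.5, 4.9 and 4.78 FPKM at 27 DAF (-1.84 ± 0.23, adjusted p = 0.00192), and the maturation factor gene63716 had 65.3, 51.4 and 64.8 FPKM and then 13.6, 22 and 16.7 FPKM (-1.76 ± 0.27). The 17 DAF libraries were even in both. Of 22 lower proteasome calls and 1 higher, 5 held in all 6 fits without 1 library. Autophagy genes had 6 of 28 members lower (1 to 11) and 2 higher (0 to 4), with 21.4% lower against 19.5% of all tested genes.

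Peptidases had 64 of 165 members lower (50 to 82) and 26 higher (11 to 34, median -0.52). These shares were 38.8% and 15.8%, against 19.5% and 19.6% of all tested genes. The legumain gene35703, of the family that matures storage proteins in vacuoles, had 153, 489.9 and 680 FPKM at 17 DAF and 30, 5.79 and 1.17 FPKM at 27 DAF (-5.59 ± 0.99, adjusted p = 0.00607). The serine carboxypeptidase gene64668 had 188, 320.2 and 263 FPKM and then 4.03, 1.7 and 0.377 FPKM (-6.57 ± 0.49, adjusted p = 0.000381). The aspartic peptidase gene7444 went up from 16.6, 18 and 29.5 FPKM to 361, 255 and 313 FPKM (3.83 ± 0.32, adjusted p = 0.000572). All of these separated the stages. Proteinase inhibitors had 5 of 30 members higher (3 to 6) and 5 lower (2 to 9), 16.7% each, near the 19.6% and 19.5% of all tested genes. The cystatin gene13601, of a family that blocks papain-type peptidases, had 0.115, 4.31 and 4 FPKM at 17 DAF and 23.1, 36.6 and 63.8 FPKM at 27 DAF (3.65 ± 0.67, adjusted p = 0.00669). The Kunitz inhibitor gene23126 had 264, 197 and 257 FPKM and then 64.8, 63.7 and 42 FPKM (-2.07 ± 0.31, adjusted p = 0.0035).

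Among transcription factor families, NAC factors had 34 of 72 members lower (25 to 44) and 6 higher (2 to 10, median -0.87), against 19.5% and 19.6% of all tested genes. The NAC gene22515 had 39.6, 41.6 and 42.6 FPKM at 17 DAF and 0.431, 0.66 and 0.128 FPKM at 27 DAF (-4.93 ± 0.24, adjusted p = 0.000109), with the 17 DAF libraries almost equal. AP2/ERF factors had 15 of 54 members higher (6 to 18) and 15 lower (9 to 18), 27.8% each. The AP2-like gene13327 had 3.56, 8.8 and 41.1 FPKM and then 136, 175 and 172 FPKM (3.7 ± 0.74, adjusted p = 0.00934), and the ethylene-responsive element binding gene24763 had 337, 188 and 176 FPKM and then 7.12, 16.9 and 11.6 FPKM (-4.2 ± 0.4, adjusted p = 0.000819). MYB factors had 20 of 91 members lower (15 to 27) and 13 higher (5 to 21). In the bZIP family 14 of 54 were lower (9 to 18) and 8 higher (3 to 11), and in the bHLH family 16 of 75 were lower (9 to 22) and 13 higher (6 to 19). The shares lower in these 3 families, 22%, 25.9% and 21.3%, were near the background of 19.5%. The G-box binding bZIP gene9806 had 9.53, 14.7 and 25.1 FPKM and then 62.5, 62.5 and 70.7 FPKM (2.02 ± 0.36), and the bHLH gene46632 had 2.88, 4.31 and 6.49 FPKM and then 41.3, 36.3 and 41 FPKM (2.92 ± 0.29).

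Outside the lists, the following lower genes were chosen for a small p-value or a large difference, which favours even libraries within a stage. Those chosen for a large difference also had to separate the stages, and all passed the filter through 17 DAF. The non-specific lipid-transfer protein gene65618 had 181, 187 and 217 FPKM at 17 DAF and 0.645, 0.248 and 0.577 FPKM at 27 DAF (-7.05 ± 0.23, adjusted p = 7.94e-05). Helianthus_annuus_newGene_26673, a pheophorbide a oxygenase of chlorophyll breakdown, had 63, 59.5 and 66.4 FPKM and then 0.0211, 0.0258 and 0.0339 FPKM (-5.96 ± 0.21, adjusted p = 8.76e-05). The germin gene25932, of a family of secreted proteins, had 425, 658 and 445 FPKM and then 1.62, 2.48 and 0.248 FPKM (-7.8 ± 0.42, adjusted p = 0.000153). In each of these the lowest 17 DAF library lay far above the highest 27 DAF library. The lipid transfer gene1146 had 413, 495 and 523 FPKM at 17 DAF and 0.859, 2.67 and 2.53 FPKM at 27 DAF (-7.36 ± 0.33), and the carbonic anhydrase gene38651 had 361, 549 and 300.4 FPKM and then 3.49, 0 and 0 FPKM (-7.89 ± 0.61).

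Among rising genes outside the lists, Helianthus_annuus_newGene_21628 (Snf7, of a membrane-sorting complex) had 0.625, 0.354 and 0.707 FPKM at 17 DAF and 12.2, 14.6 and 15.1 FPKM at 27 DAF (3.26 ± 0.23, adjusted p = 0.000327). The UDP-glycosyltransferase gene63116 had 0.965, 1.8 and 2.46 FPKM and then 30.9, 115 and 112 FPKM (4.81 ± 0.53, adjusted p = 0.00133), and the potassium transporter gene40250 had 0, 2.56 and 2.05 FPKM and then a mean of 84.1 FPKM (5.04 ± 0.67, adjusted p = 0.00236). The lipid-transfer protein gene66817 had 1.46, 14.7 and 19.2 FPKM and then 225, 286 and 262 FPKM (4.81 ± 0.76). All but Helianthus_annuus_newGene_21628 were chosen for a large difference and had to separate the stages. That gene passed the filter through 27 DAF alone, so its separation was fixed too.

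The stage difference of L-1-OL-1 was set against that of 86-1 in a limma fit of all 12 libraries. In it 47% of the tested genes changed between the stages in L-1-OL-1 and 13.7% in 86-1. These shares are not on an equal footing, since the filter used the L-1-OL-1 libraries alone and leaves out genes expressed only in 86-1. The fit also has 1 error per gene for all groups, so the wide spread of L-1-OL-1 at 17 DAF enters the test of 86-1. The stage differences themselves differed in 23.5% of genes, 14.6% being more positive in L-1-OL-1 and 8.84% more negative. Of these calls 62.4% were more positive, and 52.3% under median-of-ratios scaling, which moved the median over all tested genes from 0.26 to 0.04. Ranges in brackets here are over the 12 fits without 1 library of either cultivar. Counts of list members below stand beside the 14.6% more positive and 8.84% more negative of all tested genes.

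Cytosolic ribosomal proteins had 93 of 176 members more positive in L-1-OL-1 (55 to 139) and 1 more negative (0 to 2), with a median stage difference of -1.48 in 86-1 against 0.21 in L-1-OL-1. The number more positive was 72 under median-of-ratios scaling and 69 under quantile normalization. It was highest without replicate 1 of L-1-OL-1 at 17 DAF and lowest without replicate 2 of either cultivar at 17 DAF. Chaperones other than small heat shock proteins had 54 of 240 members more positive (32 to 65) and 12 more negative (5 to 23). The number more negative was 24 under both scalings and 23 without replicate 1 of L-1-OL-1 at 17 DAF. Both numbers were lowest without replicate 2 of L-1-OL-1 at 17 DAF.

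Sucrose breakdown and sugar transport had 17 of 57 members more negative in L-1-OL-1 (13 to 22) and 1 more positive (1 to 3, highest without replicate 3 of L-1-OL-1 at 27 DAF). The SWEET gene33431 had 559 to 574 FPKM in 86-1 at 17 DAF and 567 to 877 FPKM at 27 DAF, and its stage differences differed by -8.36 ± 1.13 (adjusted p = 0.000523). The cell wall invertase gene58278 had 37.1 to 68.8 and 39.6 to 75.1 FPKM in 86-1, a difference of stage differences of -6.12 ± 0.63 (adjusted p = 8.55e-05). In 86-1 neither gene separated the stages.

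Lignin genes had 24 of 71 members more negative in L-1-OL-1 (18 to 31) and 6 more positive (4 to 7). NAC factors had 23 of 72 more negative (18 to 35, highest without replicate 1 of L-1-OL-1 at 17 DAF) and 2 more positive (1 to 4, highest without replicate 3). Oil body proteins had 10 of 22 more negative (6 to 11), with 6 without replicate 2 of L-1-OL-1 at 17 DAF or 27 DAF, replicate 3 at 27 DAF, or replicate 2 or 3 of 86-1 at 17 DAF. Their median stage difference was 1.41 in 86-1 and 0.18 in L-1-OL-1. Seed storage proteins had 7 of 25 members more negative and none more positive, 4 without replicate 2 of L-1-OL-1 at 17 DAF and 23 without replicate 3. Photosynthesis genes had 9 of 53 more negative, and 36 without replicate 1 of L-1-OL-1 at 17 DAF. There were 3 when replicate 2 or 3 of L-1-OL-1 at 27 DAF was left out, and likewise for replicate 2 of 86-1 at 17 DAF or its replicate 1 at 27 DAF.

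Plastid fatty acid synthesis had 2 of 26 members more positive (0 without replicate 2 of L-1-OL-1 at 17 DAF) and 2 more negative (6 without replicate 3). Over all tested genes the shares were 14.6% and 8.84%. The list had medians of -1.14 in 86-1 and -1.34 in L-1-OL-1. The stearoyl-ACP desaturase gene48724 had 110.2 to 128 FPKM in 86-1 at 17 DAF and 53.7 to 91.5 FPKM at 27 DAF, and fell more in L-1-OL-1 (-2.11 ± 0.56, adjusted p = 0.0181). For the stearoyl-ACP desaturase gene3372 the difference of stage differences was -2.41 ± 1.31 (adjusted p = 0.2) and for the oleate desaturase gene64287 it was -3.02 ± 1.07 (adjusted p = 0.0593).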

How the data were processed

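FPKM values per gene and library were deposited by the authors, 1 column per library. The submitters' processing notes name RSEM 1.2.12, DESeq2 1.4.5, HISAT2 2.0.4 and Bowtie2 2.2.5 without a role. The genome build and the counting rules were not given in the sources used here. Gene descriptions came from the deposited table of best database hits, whose match score was computed by the authors per the file headers and was not used as a measurement. All 12 value columns matched a library title and 0 did not.

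FPKM values do not hold the read counts, so the test was limma 3.58.1 (R 4.3.3) with an intensity trend on log2(FPKM + 1), fitted to the 6 libraries of L-1-OL-1 with no covariate. The Benjamini-Hochberg adjustment covered all 25455 genes in the test, and calls were made under an adjusted p of 0.05. The difference of stage differences came from a fit of all 12 libraries. Summaries used Python 3.11.15, pandas 2.3.3 and numpy 2.4.6. On simulated data for the stage comparison, 66% of changes of 2 and 94% of changes of 4 on the log2 scale were recovered, with 17 false calls among 25455 genes. The simulation changed 200 genes and drew independent noise with the same SD at both stages. It lacks the wider spread at 17 DAF and the many changed genes of the data, so these rates need not hold for them.

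The members and the 40 gene lists, drawn from descriptions, were chosen with earlier results of these data known. Genes were named by size of difference (12 per direction with at least 10 FPKM in the higher stage and no overlap between the stages). Others were named by level and difference within each list (up to 3 per direction), by level per stage (5) and by spread at 17 DAF (6 with at least 100 FPKM). More were named by difference between cultivars (4 per direction) and by smallest p (5 per direction), plus all tested oleate and stearoyl-ACP desaturases. For genes named by size of difference, separation of the stages is therefore not a separate result. Alternatives were another pseudocount, other filters, 2 scalings, a robust variance, all 12 libraries in 1 fit, a replicate block and leaving out each library.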

Additional observations from a re-analysis of the deposited data

Results flagged for a closer look

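The stage differences of the cultivars differed in many genes by the test of the difference itself, the interaction of stage and cultivar in the limma fit of 12 libraries. Given here are the 4 most negative and 3 of the 4 most positive differences among named proteins with at least 10 FPKM in a group that were also called between the stages of L-1-OL-1. The other positive one, the COBRA-like gene5852, was listed at 0 in all 86-1 libraries at 27 DAF, so no difference is printed. It had 19.6, 45.3 and 72.1 FPKM in 86-1 at 17 DAF, and 18.5, 28 and 35.3 and then 50.6, 62.8 and 57.5 FPKM in L-1-OL-1. Its stage call in L-1-OL-1 was lost in limma without replicate 2 at 17 DAF (adjusted p = 0.0809). The call was also lost without replicate 1, 2 or 3 at 27 DAF (0.0644, 0.108 and 0.0996). The values given are the stage difference in L-1-OL-1 minus that in 86-1 on the log2(FPKM + 1) scale. The kelch-repeat gene71046 (-14.56 ± 0.84, adjusted p = 2.65e-06) had 82.7 to 361 FPKM at 17 DAF in L-1-OL-1 and 0 to 0.292 FPKM at 27 DAF, while 86-1 had 1.47 to 11 FPKM and then 548 to 796 FPKM. The bifunctional inhibitor/lipid-transfer gene2767 (-13.15 ± 0.7, adjusted p = 1.98e-06) had 180 to 729 and then 0 to 1.82 FPKM in L-1-OL-1, and 3.07 to 6.41 and then 198 to 287 FPKM in 86-1. The lipid-transfer protein gene62341 (Ha-AP10, -13.17 ± 1.96, adjusted p = 0.000969) had 770.0 to 5051 and then 16.1 to 47.5 FPKM in L-1-OL-1, and 5.68 to 1104 and then 9761 to 16309 FPKM in 86-1. In these genes the cultivars moved in opposite directions without overlap between stages. For gene71046 in L-1-OL-1 the direction and separation were fixed, since it passed the filter through 17 DAF alone. The albumin-8 gene47905 (-11.71 ± 1.83, adjusted p = 0.00126) had 2604 to 16029 FPKM in 86-1 at 17 DAF and 3211 to 19922 FPKM at 27 DAF, with the stages overlapping.

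In the other 3 it was positive. The cystatin gene48930 (5.90 ± 1.23, adjusted p = 0.00605) had 0.709 to 2.25 and then 11.5 to 109 FPKM in L-1-OL-1, and 6.12 to 42.9 and then 1.41 to 14.6 FPKM in 86-1. Its relative gene48931 (5.80 ± 1.11, adjusted p = 0.00393) had 0 to 0.402 and then 7.48 to 62.8 FPKM in L-1-OL-1, and 11.7 to 66.9 and then 4.17 to 28 FPKM in 86-1. The cytochrome P450 gene24430 (6.32 ± 0.83, adjusted p = 0.000463) had 0.985 to 4.64 and then 19.2 to 36.3 FPKM in L-1-OL-1, and 11.8 to 77.1 and then 2.77 to 3.32 FPKM in 86-1. The stages overlapped in 86-1 for both cystatins.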

How the results depend on the processing

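Of 9964 stage calls, 4989 higher and 4975 lower, a mean of at least 5 FPKM left 5876 (3111 higher and 2765 lower) among fewer tested genes. Over the fits without 1 library the total lay between 5297 and 11676, the higher calls between 2139 and 6843 and the lower calls between 3103 and 6739. It was lowest without replicate 2 at 17 DAF. Of 5976 calls between the cultivars, 3727 more positive and 2249 more negative, a mean of at least 5 FPKM left 3637 (2286 and 1351) and quantile normalization gave 10085 (6199 and 3886). Median-of-ratios scaling gave 4273 more negative calls. Without 1 library the total lay between 3654 and 7906, the more positive calls between 2152 and 4839 and the more negative between 1502 and 3889. The cause of the scaling differences was not tested. The other alternatives kept the counts within 1.5 times, and no named gene's call changed sign under any of those reported.

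Libraries of the same replicate number did not deviate together (r of -0.2127, 0.06382 and -0.2 across genes), and for other numbers r lay between -0.2981 and 0.316. With 3 libraries per stage these values cannot show whether the numbers pair the samples. With the replicate block 7424 stage calls and 7629 calls between the cultivars were made, and 61 of 314 named genes lost their call. Library weights did not converge, with a weight of 72.08 for replicate 2 at 17 DAF against 0.11 and 0.157 for replicates 1 and 3, and the fit with them is not reported. Read depth is unknown, so the error of low FPKM values cannot be given.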

Other observations

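The genes that differed most among the 17 DAF libraries, by their SD on the log2(FPKM + 1) scale among genes with a mean of at least 100 FPKM there, included storage albumins, which were highest in replicate 1, and late maturation genes, which were highest in replicate 3. The 2S albumin gene47181 had 14901, 8236 and 19.5 FPKM in replicates 1, 2 and 3 at 17 DAF and 2.01, 1.61 and 38.1 FPKM at 27 DAF. The albumin 20 gene47177 had 14873, 6759 and 65.6 FPKM and then 2.79, 4.05 and 95.1 FPKM. For both, replicate 3 at 17 DAF lay below the highest 27 DAF library. The seed maturation protein gene78321 (SLE3) had 0.625, 48.3 and 517 FPKM and then 1865, 1070.1 and 1067 FPKM (5.22 ± 1.85, adjusted p = 0.0601 in limma), and here replicate 1 was the one far from 27 DAF. The undescribed gene70482 had 0.357, 57.9 and 469 FPKM and then 706.5, 563 and 559.5 FPKM.

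Other abundant genes followed the same orders. The glutelin-like gene39838 had 13476, 10110 and 373 FPKM at 17 DAF and 71.8, 133 and 335 FPKM at 27 DAF, and the glycine-rich gene18005 had 234, 1175 and 1812 FPKM and then 3032, 5174 and 6949 FPKM (2.59 ± 0.88, adjusted p = 0.054 in limma). No explanation for the order of the libraries was tested.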
